A study of Mus musculus with 24 samples.

Results

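Lrtm1, R3hdml and Arsi are 3 genes whose RNA was found in the lens epithelium and was nearly gone from the lens fiber. They were chosen from the fitted difference of fiber against epithelium, averaged over 4 stages, as the largest falls that are not vessel or division genes. They are 3 of 12427 genes tested and of 12611 symbols in the count table. Total RNA was sequenced from lenses of CD1 mice (outbred and albino) at 3 ages before birth, named by embryonic day as E14.5, E16.5 and E18.5, plus P0.5, just after birth. The fiber mass and the epithelium were dissected apart, with 3 biological replicates of each tissue and stage, so 12 fiber libraries stand against 12 epithelium libraries in 8 groups. All groups are untreated and carry no engineered allele per the labels, which do not say whether a replicate pools lenses of several animals.

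The lens epithelium is a single layer of dividing cells on the front of the lens. At its edge, cells leave the cell cycle, elongate and become fiber cells, which fill with crystallin proteins, shut off much of the epithelial program and later lose their nuclei and other organelles. Lrtm1 encodes a membrane protein with leucine-rich repeats, a family whose better known members act in cell contact and nerve wiring. R3hdml encodes a predicted secreted protein of the CAP superfamily, named after cysteine-rich secretory proteins, antigen 5 and pathogenesis-related proteins. Arsi encodes arylsulfatase I, one of the sulfatases, enzymes that remove sulfate groups and that need a modified cysteine in their active site to work.

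Lrtm1 lies at chr14:29018208-29033645 on GRCm38, on the plus strand, with 7939 exon bases. It sits wholly inside Cacna2d3, a calcium channel subunit gene on the minus strand that was not analysed here, and shares 0 exon bases with it. R3hdml lies at chr2:163492318-163502612 on the plus strand, with 1094 exon bases, and overlaps the antisense gene Hnf4aos on the minus strand, also not analysed here, with 0 shared exon bases. Both are protein-coding in GENCODE M21.

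Promoters were matched in RefSeq (GRCm38.p6) for 2 of the 3 genes, and both are shown because these genes were alike in being low in fiber and took different courses over the stages in epithelium. Each window runs from 250 bases before to 50 bases after the annotated start, on the plus strand, chr14:29017958-29018257 for Lrtm1 and chr2:163492068-163492367 for R3hdml. Capitals mark matches to the motifs named in the text that follows.
Lrtm1: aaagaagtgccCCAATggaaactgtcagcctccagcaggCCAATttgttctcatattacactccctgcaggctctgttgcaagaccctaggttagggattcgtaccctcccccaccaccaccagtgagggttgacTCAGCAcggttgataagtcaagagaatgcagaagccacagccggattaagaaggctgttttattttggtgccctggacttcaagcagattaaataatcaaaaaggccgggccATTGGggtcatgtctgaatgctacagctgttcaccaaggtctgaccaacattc
R3hdml: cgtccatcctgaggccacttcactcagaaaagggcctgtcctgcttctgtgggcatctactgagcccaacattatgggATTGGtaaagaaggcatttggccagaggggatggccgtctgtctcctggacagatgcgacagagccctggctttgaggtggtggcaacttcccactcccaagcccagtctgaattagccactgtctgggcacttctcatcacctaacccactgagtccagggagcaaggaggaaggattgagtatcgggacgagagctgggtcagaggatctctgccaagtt
Motifs were searched by their letters on both strands. Those of general promoters were TATAAA, the box of the same name, as well as CCAAT, bound by factor NF-Y, and GGGCGG, bound by Sp1. Those of factors known from lens were GCCNNNGGC for the AP-2 family, TGTTTAC for forkhead factors, TAATTA for homeodomain factors, AACAAT for the Sox family and TGCTGA for the Maf family. The Lrtm1 window held CCAAT 3 times, at 239 and 211 bases before the start on the plus strand and at 3 bases before it on the minus strand. It also held TGCTGA once, on the minus strand at 115 bases before the start. In the R3hdml window the 1 match was CCAAT, on the minus strand at 172 bases before the start. Of 32851 promoter windows of the same length, 37.41% held CCAAT and 19.48% held TGCTGA. The letters of the other 6 motifs were in neither window. Over all windows the Sp1 letters stood in 35.66%, the AP-2 letters in 16.59%, the TATA box in 13.62%, the Sox letters in 10.72%, the homeodomain letters in 5.291% and the forkhead letters in 3.65%. No match overlapped a match of another motif in these windows. The share of G and C was 49.33% in the Lrtm1 window and 55.33% in the R3hdml window, against a median of 52.67% over all windows.

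Fiber libraries held 13010174 to 21617737 counts and epithelium libraries 7658794 to 11819117. Levels are given as CPM, counts scaled to a common library size after TMM normalization, which takes most genes as not differing. Crystallin genes took 23.3% to 43.9% of the counts in fiber libraries and 1.66% to 4.28% in epithelium libraries. A count of 3 was worth 0.199 to 0.399 CPM in fiber and 0.165 to 0.255 CPM in epithelium. Rn45s, the precursor of ribosomal RNA, made up 3.98% to 28.9% of the counts, and leaving it out changed no call for the 3 genes. Defining markers of both tissues were measured. For fiber, 11 genes such as Cryaa and Mip summed to group means of 229898 to 511017 CPM in fiber and 15614 to 26007 CPM in epithelium. Of 15 lens epithelium markers 12 were lower in fiber, among them the E-cadherin gene Cdh1, at group means of 15.1 to 31.1 CPM in fiber and 455 to 553 CPM in epithelium. Of the other 3 markers Sfrp1 was higher in fiber, and the summed list in fiber was 47.1% to 66.0% of that in epithelium. Averaged over stages, 22.2% of all genes tested were lower in fiber and 15.7% higher.

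Lrtm1 was nearly absent from fiber, and within epithelium it lost most of its RNA before birth. At E14.5 it stood at 2.32, 1.78 and 3.20 CPM in the fiber replicates, against 109, 114 and 106 CPM in the epithelium replicates. At E16.5 it stood at 0.298, 0.915 and 0.374 CPM in fiber, against 75.7, 74.1 and 72.0 CPM in epithelium. The epithelium replicates lay close together at both stages, and the 2 tissues did not overlap. At E18.5 it stood at 0.0863, 0 and 0.230 CPM in fiber, against 17.4, 18.1 and 16.0 CPM in epithelium. At P0.5 it stood at 0.253, 0.319 and 0.210 CPM in fiber, against 12.4, 9.42 and 7.23 CPM in epithelium. The fiber values at E18.5 rest on 1, 0 and 3 counts and those at P0.5 on 2, 4 and 2 counts, so they lie near or under the worth of 3 counts.

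R3hdml kept a high epithelium level through all 4 stages. At E14.5 it stood at 3.05, 2.99 and 1.69 CPM in fiber, against 135, 149 and 170 CPM in epithelium. At E16.5 it stood at 3.27, 1.33 and 1.87 CPM in fiber, against 195, 196 and 171 CPM in epithelium. The tissues stood far apart in every library of both stages. At E18.5 it stood at 4.40, 3.59 and 2.30 CPM in fiber, against 223, 285 and 180 CPM in epithelium. At P0.5 it stood at 4.18, 4.79 and 2.2 CPM in fiber, against 227, 205 and 142 CPM in epithelium. The spread in CPM was widest at these later stages, with replicate 3 lowest in both tissues, whereas relative to the mean it was widest in E16.5 fiber.

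Arsi, a protein-coding gene at chr18:60911780-60918561 on the plus strand with 2975 exon bases and no overlapping annotated gene, held an even level in epithelium. At E14.5 it stood at 3.45, 1.03 and 3.79 CPM in fiber, against 72.7, 79.4 and 89.7 CPM in epithelium. At E16.5 it stood at 1.49, 0.831 and 0.840 CPM in fiber, against 76.6, 78.0 and 77.1 CPM in epithelium. Fiber replicate 2 at E14.5 stood well under the other two and within the range of the E16.5 fiber libraries. At E18.5 it stood at 1.38, 1.73 and 1.31 CPM in fiber, against 65.0, 71.5 and 59.2 CPM in epithelium. At P0.5 it stood at 1.39, 1.68 and 1.47 CPM in fiber, against 67.4, 72.3 and 79.1 CPM in epithelium. The epithelium libraries of E18.5 lay under those of E16.5 and E14.5 and overlapped those of P0.5, while no fiber library came near any of them.

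**Figure D1:**
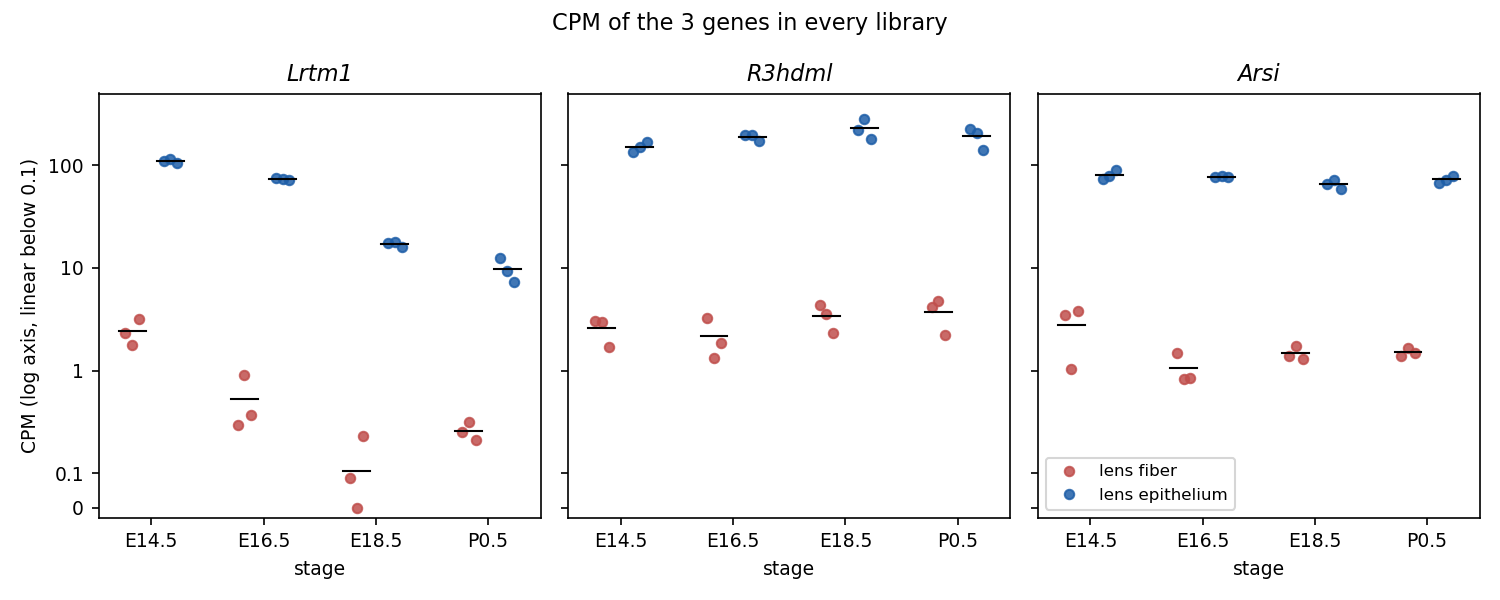
CPM of Lrtm1, R3hdml and Arsi (log axis, linear below 0.1 CPM) by stage in each of 24 libraries, with fiber in red to the left of epithelium in blue and bars at the mean of 3 replicates. Epithelium points lie far above fiber points at every stage, and those of Lrtm1 descend to 9.69 CPM at P0.5.

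The tissue difference is what chose these genes, so it is described without a test. Over the 4 stages from E14.5 to P0.5, the fiber mean of Lrtm1 was 2.21%, 0.715%, 0.616% and 2.69% of the epithelium mean. For R3hdml these shares were 1.70%, 1.15%, 1.5% and 1.95%, and for Arsi 3.42%, 1.36%, 2.26% and 2.07%. The 3 genes thus stood at no more than a few percent of their epithelium level in fiber throughout, and no fiber library overlapped an epithelium library at any stage. How many of all genes tested also lacked such an overlap was not counted. Across all genes tested, 19.4%, 20.4%, 24.2% and 24.5% were called lower in fiber over the same stages. A gene is called at an adjusted p under 0.05 (edgeR, Benjamini-Hochberg) and a change of at least 2-fold. Fewer cells of a type in a tissue and less RNA per cell cannot be told apart in these bulk samples.

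Counting error is largest for Lrtm1 in fiber. Over the 3 libraries of a group, 4 counts in fiber stood against 680 in epithelium at E18.5, a depth-scaled share of 0.727% (95% exact interval 0.197% to 1.87%). At P0.5, 8 counts stood against 471, a share of 2.79% (1.2% to 5.55%). The interval at E16.5 was 0.439% to 1.17%, so the order of the fiber shares of Lrtm1 over the last 3 stages is only partly resolved. Those of R3hdml rest on 69 to 114 fiber counts a stage and those of Arsi on 34 to 108. These intervals cover counting error only.

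Averaged over stages, the log2 difference of fiber minus epithelium was -6.16 for Lrtm1, -6.02 for R3hdml and -5.52 for Arsi. These falls rank at 5, 7 and 33 of 12427 genes, and at 1, 2 and 5 among genes that reach a mean of 50 CPM in a group. Between R3hdml and Arsi in that shorter ranking stand Igfbp5, a secreted binding protein of insulin-like growth factors (-5.94), and the laminin gene Lama4 of vessel walls (-5.67). Igfbp5 is neither a vessel nor a division gene and lies inside the range of the 3 genes. Just past Arsi stand the vessel gene Cd34 (-5.43), the spindle checkpoint gene Bub1 (-5.32) and Col15a1 (-5.21), a collagen of basement membrane zones. The next that are in none of the marker lists for vessels and division are Sulf1 (-5.15), Tenm2 (-5.13) and Itga3 (-5.10).

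On a scale of CPM per kb of exon, which allows levels of different genes to be compared, R3hdml stood highest. Its epithelium level was 138, 171, 210 and 175 CPM per kb from E14.5 to P0.5, above 99.47% to 99.67% of 12170 genes with a known length at each stage. Arsi stood at 27.1, 26.0, 21.9 and 24.5 CPM per kb in epithelium, above 91.9% to 94.1% of genes. Lrtm1 stood at 13.8, 9.31, 2.16 and 1.22 CPM per kb, above 84.3% of genes at the first stage and 12.3% at the last. In fiber R3hdml still stood at 1.97 to 3.40 CPM per kb, above 31.4% to 43.7% of genes, while Lrtm1 stood at 0.0133 to 0.306, above 0.460% to 9.25%. Per length, the epithelium level of R3hdml was thus the highest of the 3 at every stage and that of Lrtm1 the lowest.

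Changes over stages within a tissue did not enter the choice of the genes and were tested. In epithelium 1 of the 3 genes changed between P0.5 and E14.5, the 2 ends of the course. Lrtm1 fell to 9.69 CPM ± 2.62 (SD, n = 3) at P0.5, against 109.9 CPM ± 4.09 at E14.5. The change was 11.4-fold, log2 -3.51 ± 0.13 (SE), with an edgeR adjusted p of 1.58e-15, and 0.193% of genes tested had a lower log2 value. Among all genes tested, 3.21% fell and 10.1% rose in this comparison. R3hdml averaged 191 CPM ± 44.2 at P0.5 and 151 CPM ± 17.2 at E14.5, log2 0.33 ± 0.16 with an edgeR adjusted p of 0.0869. Arsi averaged 72.9 CPM ± 5.85 at P0.5 and 80.6 CPM ± 8.52 at E14.5, log2 -0.15 ± 0.11 with an edgeR adjusted p of 0.287.

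The fall of Lrtm1 was concentrated between E16.5 and E18.5. In that step it fell to 17.1 CPM ± 1.07 at E18.5, against 73.9 CPM ± 1.85 at E16.5, a 4.31-fold change with log2 -2.11 ± 0.12 and an edgeR adjusted p of 1.09e-11. In the same step 0.547% of genes tested fell and 6.75% rose. The steps on either side missed the 2-fold limit: the log2 change was -0.57 ± 0.11 from E14.5 to E16.5 (edgeR adjusted p = 0.00055) and -0.83 ± 0.14 from E18.5 to P0.5 (edgeR adjusted p = 0.000654). The last of these passed without epithelium P0.5 replicate 1, at -1.05 with an edgeR adjusted p of 0.00011. Epithelium levels of Lrtm1 descended E14.5, E16.5, E18.5, P0.5, and the libraries of neighbouring stages did not overlap. The share of all genes without overlap between neighbouring stages was not counted, so overlap here and below only describes the libraries.

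Neither R3hdml nor Arsi passed in any single step in epithelium. R3hdml had log2 changes of 0.31 ± 0.17, 0.29 ± 0.16 and -0.26 ± 0.16 over the 3 steps, with edgeR adjusted p of 0.194, 0.192 and 0.302. In the order of its levels, E18.5, P0.5 and E16.5 overlapped as neighbours, while E16.5 and E14.5 lay beside each other without overlap. Arsi had log2 changes of -0.06 ± 0.12, -0.24 ± 0.12 and 0.16 ± 0.12, with edgeR adjusted p of 0.745, 0.118 and 0.378, and all neighbours in its order overlapped. Of all genes tested, 1.71% rose and 0.821% fell from E14.5 to E16.5, and 0.579% rose and 0.426% fell from E18.5 to P0.5.

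**Figure D2:**
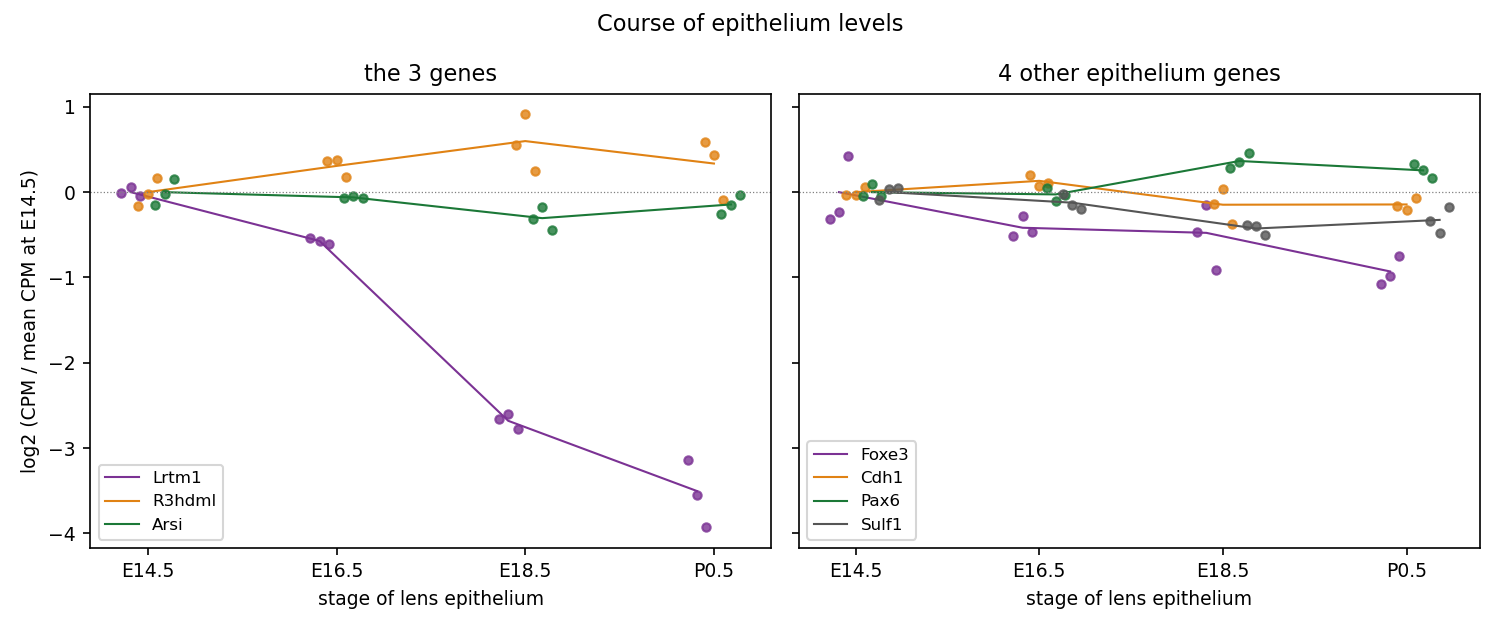
Epithelium CPM of each library over the E14.5 mean of the gene (log2 scale), by stage, for the 3 genes on the left and for Foxe3, Cdh1, Pax6 and Sulf1 on the right; points are libraries and lines join group means. The points of Lrtm1 end between -4 and -3, and those of the other 6 genes stay between -1.2 and 1.

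**Figure D3:**
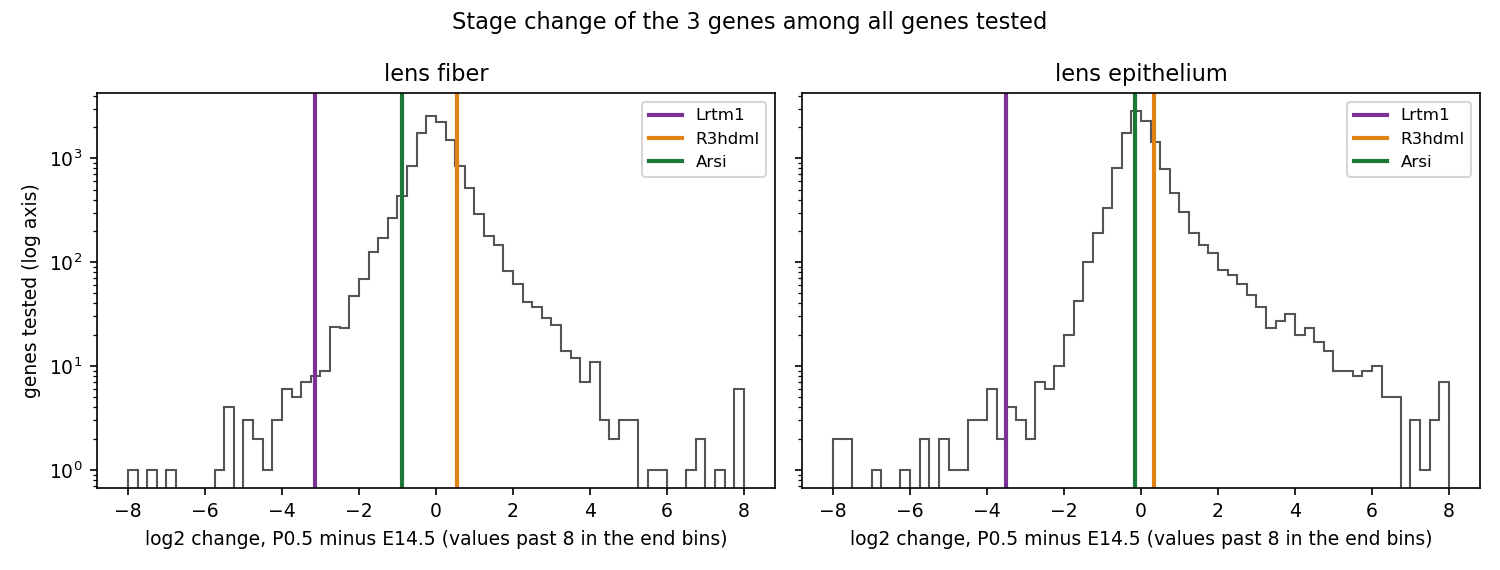
Number of genes tested (log axis) by log2 change of P0.5 minus E14.5 in fiber on the left and epithelium on the right, with coloured lines at the 3 genes and values past 8 in the end bins. Lrtm1 lies in the lower tail of both tissues, at -3.15 in fiber and -3.51 in epithelium.

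In fiber the traces of these genes were small, and 2 of the 3 still fell in the first step. Lrtm1 fell to 0.529 CPM ± 0.336 at E16.5, against 2.43 CPM ± 0.72 at E14.5, log2 -2.14 ± 0.38 with an edgeR adjusted p of 0.000317. Without fiber E16.5 replicate 2, which held 11 of its 18 counts there, the log2 change was -2.82. Arsi fell to 1.05 CPM ± 0.377 at E16.5, against 2.76 CPM ± 1.51 at E14.5, log2 -1.45 ± 0.34 with an edgeR adjusted p of 0.00439, and its libraries overlapped through fiber E14.5 replicate 2. Of all genes tested, 1.61% fell and 1.46% rose in this step. R3hdml averaged 2.16 CPM ± 1.0 at E16.5 and 2.58 CPM ± 0.77 at E14.5, log2 -0.30 ± 0.46 with an edgeR adjusted p of 0.715.

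Over the whole course in fiber Lrtm1 fell to 0.261 CPM ± 0.055 at P0.5, against 2.43 CPM ± 0.72 at E14.5, log2 -3.15 ± 0.46 with an edgeR adjusted p of 4.51e-06. It rests on 8 counts at P0.5 and 92 at E14.5, and 5.24% of all genes fell and 6.69% rose in this comparison. Arsi had a log2 change of -0.89 ± 0.32 with an edgeR adjusted p of 0.0225, short of 2-fold. Without fiber E14.5 replicate 2 it passed, at -1.23 with an edgeR adjusted p of 0.000123. R3hdml averaged 3.72 CPM ± 1.35 at P0.5 and 2.58 CPM ± 0.77 at E14.5, log2 0.54 ± 0.41 with an edgeR adjusted p of 0.276. In fiber, Lrtm1 at E14.5 lay above and apart from all later stages, whereas the libraries of R3hdml and Arsi overlapped between every pair of neighbours in the order of their levels.

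None of the 3 genes passed in the later fiber steps. From E16.5 to E18.5, where 0.724% of all genes fell and 1.91% rose, Lrtm1 had a log2 change of -2.06 ± 0.77 with an edgeR adjusted p of 0.0597. This value rests on 4 counts at E18.5 and 18 at E16.5. It passed with DESeq2, at -2.12 with an adjusted p of 0.0433. R3hdml had 0.68 ± 0.45 (edgeR adjusted p = 0.308) and Arsi 0.46 ± 0.41 (edgeR adjusted p = 0.462) in that step. From E18.5 to P0.5, where 0.241% of all genes fell and 0.298% rose, the log2 changes were 1.04 ± 0.93 for Lrtm1, 0.17 ± 0.40 for R3hdml and 0.10 ± 0.38 for Arsi, with edgeR adjusted p of 0.56, 0.86 and 0.923.

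Whether the tissue difference itself moved from E14.5 to P0.5 was tested as an interaction, the stage change in fiber minus that in epithelium. It was 0.36 ± 0.73 on the log2 scale for Lrtm1 (edgeR adjusted p = 0.725), 0.21 ± 0.44 for R3hdml (edgeR adjusted p = 0.734) and -0.75 ± 0.34 for Arsi (edgeR adjusted p = 0.0843). None of the 3 passed, while 3.77% of all genes were called higher and 7.92% lower. The Lrtm1 value rests on 8 fiber counts at P0.5. Its SE of 0.73 is wider than the SE of its fiber change (0.46) and of its epithelium change (0.13) imply, and is approximate. Without fiber E14.5 replicate 2 Arsi passed, at -1.08 with an edgeR adjusted p of 0.0013.

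The course of Lrtm1 was set beside that of 15 known lens epithelium markers. In epithelium between P0.5 and E14.5, where 10.1% of all genes rose and 3.21% fell, 1 of the 15 rose, the gap junction gene Gja1 (log2 1.73), and 2 fell, the Wnt antagonist gene Sfrp2 (-5.55) and Igfbp5 (-1.08). Gja1 averaged 833 CPM at E18.5 and 220 CPM at E16.5, the step in which retina and pigment cell markers rose. The median of the 15 lens epithelium markers was 0.06, against 0.007 over all genes tested. Foxe3, a forkhead factor needed for the lens epithelium, had -0.93 and did not pass 2-fold, and Lrtm1 at -3.51 thus lay between Sfrp2 and the rest. The summed level of the list was 6054 CPM at P0.5 and 6691 CPM at E14.5 in epithelium, and in the step where Lrtm1 fell most it was 7644 CPM at E18.5 and 7241 CPM at E16.5.

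Fiber levels of the 15 lens epithelium markers ranged widely. Sfrp1 stood at 241% to 310% of its epithelium mean in fiber, Six3 at 92.7% to 123% and Aldh1a1 at 80.0% to 100.04%. The fiber mean of Foxe3 was 5.71% of the epithelium mean at P0.5 and 9.15% at E14.5. That of Pax6, the master regulator of eye development, was 27.0% at P0.5 and 41.2% at E14.5. Cdh1 stood at 2.73% at E16.5, against 6.17% at E14.5, and Igfbp5 at 1.37% to 2.03% over the 4 stages. In the first fiber step, where Lrtm1 and Arsi fell, Cdh1 (-1.05) and Sfrp2 (-2.32) fell among the 15 markers. Over all genes 1.61% fell and 1.46% rose in this step. Of 10 division genes 7 fell and 0 rose in it, with a median of -1.45, and of 10 endothelium genes 1 fell and 0 rose. Division genes summed to 7.24% of their epithelium level in fiber at E16.5 and 8.90% at E14.5, and endothelium genes to 8.69% and 7.26%. What part RNA of epithelium cells left on the fiber mass has in the traces of the 3 genes was not tested.

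The sulfatase list shows Arsi beside the other enzymes of its class. Of 15 listed genes 13 were tested, and on the tissue difference 4 were lower in fiber and 0 higher, Arsi (-5.52), Sulf1 (-5.15), Arsb (-2.08) and Arsa (-1.5). Arsi was chosen on this difference, and over all genes 22.2% were lower and 15.7% higher. Sulf1 encodes an enzyme that trims sulfate from heparan sulfate outside the cell, and Arsb and Arsa encode lysosomal sulfatases. The list median was 0.13, against -0.03 over all genes, and the other 9 sulfatase genes did not pass. Among these, Sumf1, which makes the modified cysteine that all sulfatases need, had 0.13, and Sulf2, the sister enzyme of Sulf1, had 0.81. On the CPM per kb scale Arsi stood at 0.354 and Sulf1 at 0.396 in E16.5 fiber, against 26.0 for Arsi and 20.4 for Sulf1 in E16.5 epithelium.

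Over stages the sulfatases that fell early in fiber were Arsi and Sulf1. Sulf1 averaged 9.44, 4.48, 5.91 and 5.30 CPM in fiber from E14.5 to P0.5, and 250, 230, 186 and 200 CPM in epithelium. From E14.5 to E16.5 in fiber, 0 of the 13 rose and 2 fell, Arsi (-1.45) and Sulf1 (-1.10, edgeR adjusted p = 0.000264). Over all genes 1.46% rose and 1.61% fell in this step. Fiber E14.5 replicate 2 was low for both, at 1.03 CPM for Arsi and 5.89 CPM for Sulf1, where the other replicates of Sulf1 had 10.5 and 12 CPM. This was not particular to the sulfatases. That library was also the lowest of its group for Lrtm1, Cdh1, Sfrp2, Igfbp5 and Tenm2, though not for R3hdml, Foxe3 or Gja1. None of the 13 passed between P0.5 and E14.5 in either tissue. Over all genes 10.1% rose and 3.21% fell there in epithelium, and 6.69% rose and 5.24% fell in fiber. Sulf2 rose between E16.5 and E18.5 in epithelium (1.18), as did 6.75% of all genes. In the interaction Arsa (-1.52) and Arsg (-1.07) were lower and none was higher, against 7.92% lower and 3.77% higher over all genes.

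The CAP list held few measured genes. Of 14 listed, 4 were in the table and tested: R3hdml, Clec18a, Crispld2 and Glipr2. On the tissue difference, on which R3hdml (-6.02) was chosen, Clec18a (-5.10), a secreted protein that joins a CAP domain to a lectin domain, was lower in fiber, and Crispld2, a secreted CAP protein, was higher (1.32). Over all genes 22.2% were lower and 15.7% higher. Per length Clec18a was far less abundant, with group means of 0.0340 to 0.0979 CPM per kb in fiber and 1.22 to 5.46 in epithelium, where R3hdml had 138 to 210. Where R3hdml held its level, Clec18a rose in epithelium between P0.5 and E14.5 (1.92) and Crispld2 fell (-1.63). Over all genes 10.1% rose and 3.21% fell in this comparison. Glipr2, a Golgi-associated CAP protein, had -0.51 there and did not pass. In fiber between P0.5 and E14.5, where 6.69% of all genes rose and 5.24% fell, Crispld2 fell (-1.69) and none rose. Clec18a was also lower in the interaction (-2.07), as were 7.92% of all genes.

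The leucine-rich repeat list moved mostly against Lrtm1. Of 26 listed membrane proteins 19 were tested. In epithelium between P0.5 and E14.5, where 10.1% of all genes rose and 3.21% fell, 11 rose and 1 fell, Lrtm1 itself, with a median of 1.56 against 0.007 over all genes. The rises were led by Lrrn1 (5.99), Lingo2 (4.44), Lrrc4c (4.37), Flrt1 (3.93) and Lrrn2 (3.83), genes best known from the nervous system. Lrtm2, the closest relative of Lrtm1 by name, rose by 2.88, to 34.5 CPM ± 1.64 at P0.5, against 4.67 CPM ± 1.81 at E14.5. In P0.5 epithelium Lrtm1 stood at 1.22 CPM per kb and Lrtm2 at 8.41, against 13.8 for Lrtm1 and 1.14 for Lrtm2 in E14.5 epithelium, so their order turned over.

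Lrtm2 shared the near absence from fiber. Its fiber mean was 5.76%, 1.64%, 1.67% and 2.34% of the epithelium mean from E14.5 to P0.5, and its log2 tissue difference was -5.33. On that difference, where 22.2% of all genes were lower and 15.7% higher, 12 of the 19 genes were lower in fiber, Lrtm1 among them by choice, and 4 were higher, led by Lrrtm2 (4.74), a synapse organizer with means at P0.5 of 49.8 CPM in fiber and 2.19 CPM in epithelium. In fiber between P0.5 and E14.5, where 6.69% of all genes rose and 5.24% fell, 5 of the 19 rose, such as Slitrk5 (1.87) and Lrtm2 (1.71), and Lrtm1 fell. In the epithelium step from E16.5 to E18.5, where 6.75% of all genes rose and 0.547% fell, 7 rose, such as Lrrn1 (4.27), and Lrtm1 fell. In that same step 11 of 12 retina and ciliary margin markers rose in the epithelium libraries, and what part such cells have in the rises of this list was not tested. Lrtm2 had 0.52 in that step and had already risen from E14.5 to E16.5 (2.03).

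**Figure D4:**
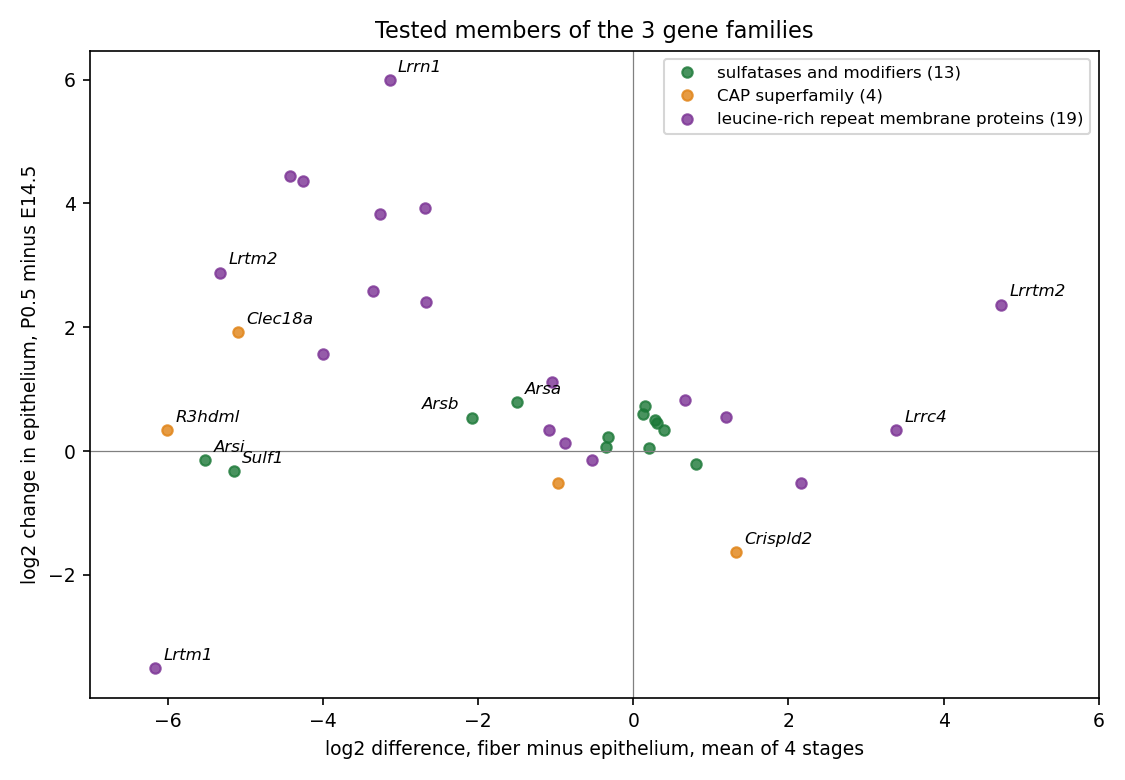
Each point is a tested gene of the sulfatase, CAP or leucine-rich repeat list, placed by its log2 difference of fiber minus epithelium (mean of 4 stages) and its log2 change in epithelium (P0.5 minus E14.5). Lrtm1 stands alone at the lower left (-6.16, -3.51), Arsi and Sulf1 lie together near the zero line, and R3hdml lies beside them at -6.02.

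Markers of other cells were measured in the same epithelium libraries because some moved in the step where Lrtm1 fell. From E16.5 to E18.5, 6.75% of all genes tested rose and 0.547% fell. Summed retina and ciliary margin markers averaged 437 CPM at E18.5 (388 to 530) and 42.1 CPM at E16.5 (16.7 to 76.5), with 11 of 12 rising. Pigment cell markers averaged 158 CPM at E18.5 (147 to 173) and 4.75 CPM at E16.5 (2.09 to 7.27), with 6 of 6 tested rising. Of 10 endothelium genes 2 rose, of 8 mural cell genes 3 and of 6 macrophage genes 2, and 0 fell. Other lists fell in part in this step. Of 7 mesenchyme genes 3 fell and 0 rose (median -1.16), and of 3 red cell genes 2 fell and 0 rose (median -2.84). The lens epithelium list summed to 7644 CPM at E18.5 and 7241 CPM at E16.5. Within it 1 gene rose and 1 fell. Gja1 rose, with 784 to 908 CPM at E18.5 and 205 to 238 CPM at E16.5. Sfrp2 had 14.3 to 20.3 CPM at E18.5 and 47.3 to 66.0 CPM at E16.5. Neither R3hdml (0.29) nor Arsi (-0.24) passed in that step. The part of retina, ciliary margin, pigment and these other cells in the fall of Lrtm1 was not tested.

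Other markers fell with Lrtm1 over the whole course in epithelium, where 3.21% of all genes tested fell and 10.1% rose. Mesenchyme markers averaged 396 CPM at P0.5 (377 to 418) and 693 CPM at E14.5 (644 to 727), with 6 of 7 tested genes falling. The sum is mostly Pdgfra, a growth factor receptor gene and 94.3% of it in E18.5 epithelium. Pdgfra had a log2 change of -0.63, short of 2-fold, while the median of the 7 genes was -2.15. The sum and its fiber share thus mainly follow 1 gene, and which cells hold its RNA was not tested. Of 10 division genes 8 fell, and their sum was 801 CPM at P0.5 and 1674 CPM at E14.5. Red cell genes averaged 3.01 CPM at P0.5 (2.48 to 3.33) and 239 CPM at E14.5 (178 to 284), with 3 of 3 tested falling. Alas2 made up 95.7% of the sum in E18.5 epithelium, where the sum was 10.3 CPM. That share does not describe the sum at E14.5. The adult globin genes Hbb-bt, Hbb-bs, Hba-a1 and Hba-a2 were listed at 0 in every group. As a share of the epithelium mean at E14.5, fiber held 15.4% of the mesenchyme sum, 8.90% of the division sum, 12.9% of the red cell sum and 2.21% of Lrtm1. Their part in the course of Lrtm1 was not tested.

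**Figure D5:**
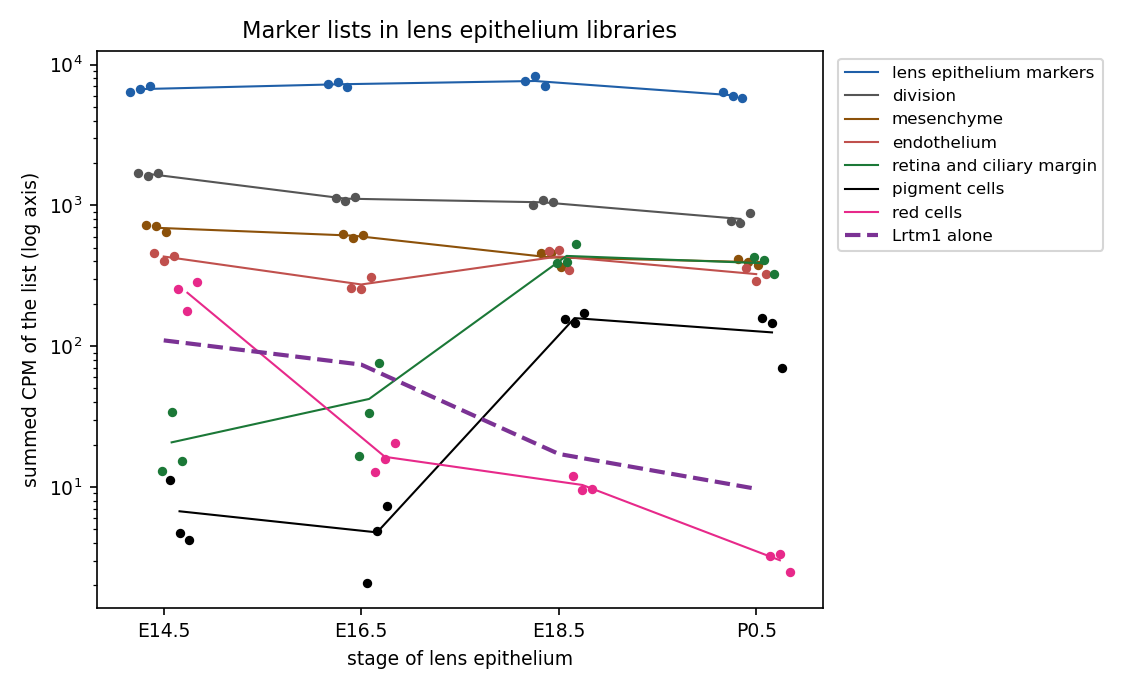
Summed CPM (log axis) of 7 marker lists in the 12 epithelium libraries by stage, with points for libraries and lines through group means, and the mean CPM of Lrtm1 as a dashed line. Retina and pigment lists step up at E18.5 where Lrtm1 steps down, and the group means of the lens epithelium list stay between 6054 and 7644 CPM.

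Over all 24 libraries the 3 genes followed one another, since the tissue difference runs through all of them. Pearson correlations of log2 CPM were 0.87 for Lrtm1 with R3hdml, 0.91 for Lrtm1 with Arsi and 0.98 for R3hdml with Arsi. Within the 12 epithelium libraries they were -0.40, 0.54 and -0.37, and within the 12 fiber libraries -0.45, 0.42 and 0.13. The genes share the libraries and their depth, and these values are descriptions with no test.

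The genes most like each member were taken from 9689 candidates by the correlation of log2 CPM. Over 24 libraries Arsi was most like Sulf1 (0.997), Cdh1 (0.993) and the integrin gene Itga3 (0.992), followed by Cadps2 and Slc38a3. R3hdml was most like Tenm2 (0.991), a teneurin of cell contacts, the pigment gene Oca2, Cadps2, Cmtm4 and Rab11fip1 (0.990). Tenm2 had 3.59 to 5.02 CPM in fiber group means and 139 to 184 CPM in epithelium. Lrtm1 was most like Efnb2 (0.985), the ephrin B2 gene, which had 170 to 218 CPM in fiber group means and 270 to 338 CPM in epithelium, followed by Iws1, Smarca5, Chd1 and Sept11. With Spearman correlation 1 of the 5 names remained for Arsi, 1 for R3hdml and 0 for Lrtm1, and with library size only 4, 3 and 0.

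Within the 12 epithelium libraries Lrtm1 was most like Igf2bp3 (0.985), an RNA-binding protein gene of fetal tissues. Igf2bp3 averaged 149, 119, 78.3 and 68.5 CPM in epithelium from E14.5 to P0.5, a fall of 1.12 on the log2 scale over the course. Unlike Lrtm1 it was as abundant in fiber, at 78.8 CPM at P0.5 and 150 CPM at E14.5. Next came Stxbp6, Slc4a1 (0.983), Tnpo3 and Ror1. Slc4a1 encodes the anion exchanger of red cells and had 0.542 CPM at P0.5 and 11.2 CPM at E14.5. Arsi was most like Skiv2l (0.950) and Pitx3 (0.927), a transcription factor whose loss stops lens development in mice, followed by Sh3rf1, Parm1 and Cntfr. R3hdml was most like Slc46a3 (0.891), Apmap, Loxl2, Sema6a and Pnrc1. Of the 5 names for a gene in epithelium, 0 to 4 remained under Spearman correlation or library size only.

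The neighbours of the 3 genes on the chromosome did not share their pattern as a rule. The nearest measured genes beside Lrtm1 are Wnt5a, 490760 bases away, which also stood lower in fiber (-3.19 averaged over stages), and Selenok, 934663 bases away (0.53). In epithelium between P0.5 and E14.5, where Lrtm1 fell, Wnt5a had 0.79 and Selenok -0.03, and neither passed. Beside R3hdml lie Fitm2 at 19689 bases (-0.35) and Ttpal at 99702 bases (0.82). Beside Arsi lie Camk2a at 7057 bases (-0.64) and Tcof1 at 62809 bases (-1.18). Tcof1 fell in epithelium between P0.5 and E14.5 (-1.06), where Arsi had -0.15.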

How the data were processed

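The authors deposited 1 table of read counts per gene for 24 libraries, with no normalization. Per the labels' protocols the RNA was depleted of ribosomal RNA and made into stranded libraries. Per the submitters' processing notes the tools, with no role or order given, included HTSeq 0.6.1, Cufflinks 2.2.1, Cuffdiff, TopHat2 2.0.13 and Trim Galore 0.4.1, and the build was mm10. How strand was treated in counting is not stated, so a gene may hold reads of an overlapping gene on the other strand.

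Of 12611 symbols, 12427 passed edgeR's filterByExpr (minimum count 10, minimum total 15), the 3 members among them. All 24 libraries entered 1 quasi-likelihood fit of 8 group means (edgeR 4.0.16, R 4.3.3) with TMM scaling, 16 residual degrees of freedom and two-sided p adjusted over all genes tested by the Benjamini-Hochberg method. SE was obtained from the log2 change and the F statistic of its test. Within-tissue stage changes, the interaction and fiber against epithelium were fitted across all genes. The last, on which the members were picked, is given for them as a description with no p. An exact test of 3 against 3 libraries cannot go below 0.1. Likeness used log2 CPM with a prior count of 2 among genes that reach 10 CPM in a group. Named genes are the members, called members of the lists (at most 10 a list and direction), the 5 most like genes, chromosome neighbours and those next to the members in the ranking of falls. Members and lists were chosen with earlier results of these data known. Positions and exon lengths are from GENCODE M21 (GRCm38, the assembly of mm10), which matched 12340 symbols to 1 gene. The fit was also run on simulated counts, with changes placed only in P0.5 epithelium and the same mean share of each gene in all other groups. That run held no tissue difference, so it does not cover the low fiber counts of the 3 genes.

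Alternatives were library size only, RLE size factors, crystallins or Rn45s left out, DESeq2 1.42.0, 2 other filters, fits within 1 tissue or of 2 stages, a replicate block and each library left out. A comparison of protein sequences of each family was not made.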

Additional observations from a re-analysis of the deposited data

How the results depend on the processing

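Every call made for the 3 genes (Lrtm1 in epithelium from E14.5 to P0.5 and from E16.5 to E18.5, Lrtm1 in fiber from E14.5 to P0.5 and to E16.5, and Arsi in fiber from E14.5 to E16.5) held under every alternative run and with each of the 24 libraries left out. Some results that missed the limits passed elsewhere. With library size only, which moves the median log2 value of all genes to -1.23 from -0.03 for the mean tissue difference, to -0.56 from -0.02 for fiber P0.5 minus E14.5 and to -0.68 from -0.04 for the interaction, Arsi passed in fiber P0.5 minus E14.5 (-1.43, edgeR adjusted p = 0.000107) and in the interaction (-1.37, 0.000723). Lrtm1 passed in fiber E18.5 minus E16.5 (-2.33, edgeR adjusted p = 0.00774). Values close to 0 changed sign there: R3hdml in fiber P0.5 minus E14.5 (-0.0012) and the interactions of Lrtm1 (-0.24) and R3hdml (-0.43). The tissue differences became -7.34 for Lrtm1, -7.22 for R3hdml and -6.72 for Arsi. With DESeq2, Lrtm1 passed in fiber E18.5 minus E16.5 (-2.12, adjusted p = 0.0433). Counts of genes called higher and lower moved by over 1.5 times only with library size only: to 367 and 2168 from 831 and 651 in fiber P0.5 minus E14.5, to 119 and 359 from 181 and 200 in fiber E16.5 minus E14.5, to 127 and 353 from 237 and 90 in fiber E18.5 minus E16.5, to 138 and 3260 from 468 and 984 in the interaction, and to 587 and 7423 from 1945 and 2758 in the mean tissue difference. The cause was not tested. With 1 library left out, the ranges of results that passed or changed sign in some of these fits were -1.23 to -0.65 for Arsi in fiber P0.5 minus E14.5, -1.08 to -0.50 for its interaction, -0.13 to 0.0217 in epithelium E16.5 minus E14.5 and -0.000102 to 0.19 in fiber P0.5 minus E18.5. For R3hdml they were -0.0742 to 0.47 in the interaction and -0.12 to 0.44 in fiber P0.5 minus E18.5. For Lrtm1 they were -3.17 to -1.37 in fiber E18.5 minus E16.5, which passed without fiber E16.5 replicate 1, epithelium P0.5 replicate 1 or epithelium P0.5 replicate 3, and -1.05 to -0.65 in epithelium P0.5 minus E18.5. Lrtm1 in epithelium P0.5 minus E14.5 ranged from -3.73 to -3.33. The deviations of same-numbered fiber and epithelium libraries had r over 0.1 in 3 of 12 pairs (range -0.07 to 0.22). Such weak correlations cannot tell whether these libraries share animals, and the labels do not say. With the number as a replicate block, the log2 change of Lrtm1 in epithelium P0.5 minus E14.5 was -3.52 and no call of the 3 genes changed. Depth limits the fiber values: Lrtm1 had 4 counts in all at E18.5.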
